A study of Mus musculus with 8 samples.

Results

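In mouse macrophages activated with lipopolysaccharide (LPS), 269 of 74207 ATAC-seq peaks were less open in both mice when the β2 adrenergic agonist fenoterol had been given first. ATAC-seq uses the Tn5 transposase to place sequencing adapters in open chromatin, so reads pile up where DNA is accessible. These peaks were chosen by the measured difference itself. In each of the 2 mice the log2 ratio of fenoterol + LPS to LPS had to show at least a 1.5-fold difference, computed after adding 4 to the deposited RPKM (reads scaled to peak length and to library depth). The mean of all 8 libraries also had to exceed 9.7 RPKM, which 66772 peaks did. The difference between fenoterol + LPS and LPS is therefore described for these peaks and not tested, and the chosen peaks are 0.403% of those that passed the filter on the mean.

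Macrophages were differentiated from bone marrow of C57Bl/6 mice (wild-type) and grown in CMG medium with serum. Cells of each mouse were left unstimulated, given 1 µM fenoterol for 15 min, given 100 ng/mL LPS for 1 h, or given fenoterol for 15 min and then LPS for 1 h. This makes 4 groups of 2 libraries, 1 per mouse. Cells with both agents were thus harvested later after fenoterol than cells with fenoterol alone. The shallowest library, mouse 1 unstimulated, held 1426873 reads in peaks, and the other 7 held 3164446 to 4040292. The labels name 2 mice and no separate cultures, so the spread given is that between these libraries.

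The β2 adrenergic receptor couples to the stimulatory G protein, raises cyclic AMP and activates protein kinase A, which phosphorylates the transcription factor CREB. LPS acts through Toll-like receptor 4, which leads to NF-κB and AP-1 binding and to the opening of enhancers in macrophages. In bulk chromatin, a lower value can mean fewer cells with the region open or a region less open in each cell, and these cannot be told apart. Regions are named by position on build mm9, as deposited. No annotation or sequence of that build was used, so macrophage identity could not be checked at marker genes and no sequence is shown.

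The chosen peaks were narrow and thinly covered compared with the rest. Their median width was 292 bp against 422 bp for all peaks that passed the filter, and 41 of them (15.2%) had the smallest width of 200 bp, against 3.45% of all. Median accessibility over the 8 libraries was 12.4 RPKM against 18.6, with a highest value of 36.1 RPKM. Only 21 of the 269 exceeded 20 RPKM, and 203 were under 15 RPKM. Together they took 0.147% and 0.152% of the reads in peaks with LPS in mouse 1 and mouse 2, and 0.0705% and 0.0727% with fenoterol + LPS. The direction of this gap is fixed by the choice of the peaks. The shares were 0.102% and 0.128% unstimulated, and 0.117% and 0.122% with fenoterol.

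Few reads stood behind a typical value. The median peak of the set held 16 and 18 reads with LPS in mouse 1 and mouse 2, and 9 and 8 reads with fenoterol + LPS. An exact 95% Poisson interval is 9.15 to 26.0 for 16 reads and 4.12 to 17.1 for 9, covering counting error only. In the shallow unstimulated library of mouse 1 the median was 4 reads, and 20 of the 269 stood at 1 read, which in this table can also mean no read. Fewer than 20 reads with LPS in both mice were found at 144 of the 269.

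The same difference in the opposite direction was more common. Peaks at least 1.5-fold higher with fenoterol + LPS in both mice numbered 1000, and another 276 differed by as much but with opposite sign between mice. The 269 lower peaks were 21.2% of those that went 1 way in both mice. Quantile normalization made this 40.2%, with 673 lower, 1003 higher and 451 opposite. In mouse 1 alone 2419 peaks were at least 1.5-fold lower, of which the 269 are 11.1%, and in mouse 2 alone 2719, of which they are 9.89%.

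**Figure D1:**
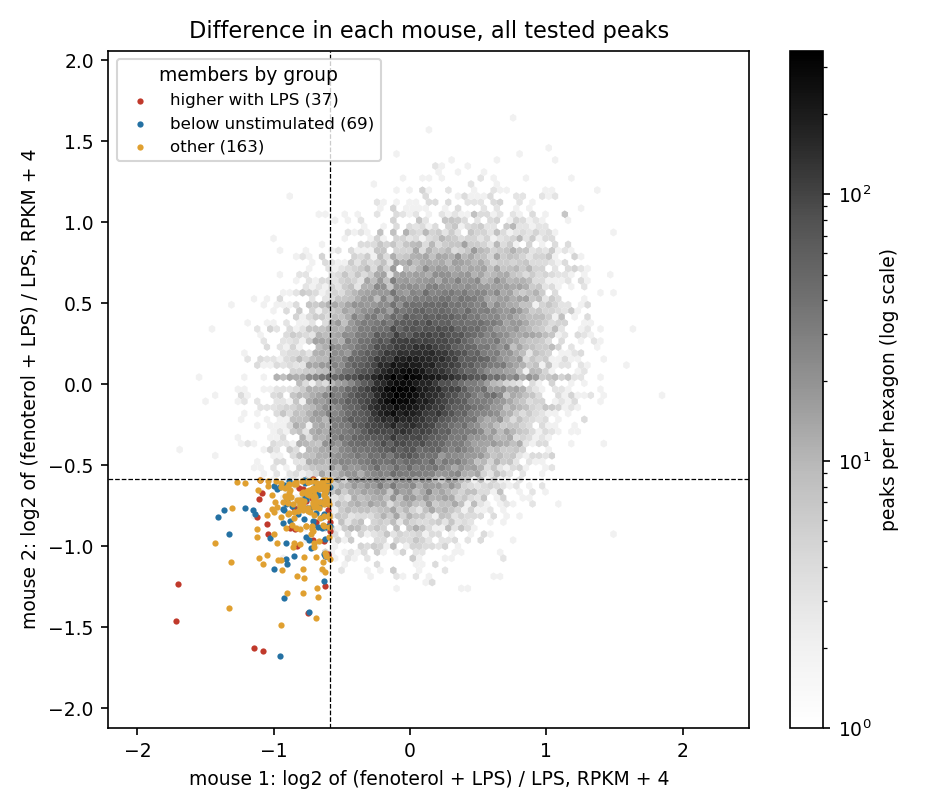
Log2 ratio of fenoterol + LPS to LPS (RPKM + 4) in mouse 1 (horizontal) and mouse 2 (vertical) for the 66772 peaks, as hexagons shaded by number of peaks on a log scale, with the 269 chosen peaks as coloured points and dashed lines at the 1.5-fold cut. The chosen peaks fill the lower left corner by construction, and the 4 with the lowest mean of both mice belong to the group higher with LPS (red).

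These counts depended on how many reads a peak held. Peaks were divided into 5 bins of about equal size by mean reads per library. In the bin with the fewest reads (6 to 13.8), 154 were lower in both mice, 422 higher and 216 opposite. From 13.8 to 21.1 reads the counts were 75, 312 and 50, and from 21.1 to 34.6 reads 34, 191 and 9. From 34.6 to 69.5 reads, 6 were lower, 67 higher and 1 opposite. Above 69.5 reads 0 of 13362 peaks were lower, 8 higher and 0 opposite. So 57.2% of the chosen peaks lay where opposite outcomes outnumbered them.

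**Figure D2:**
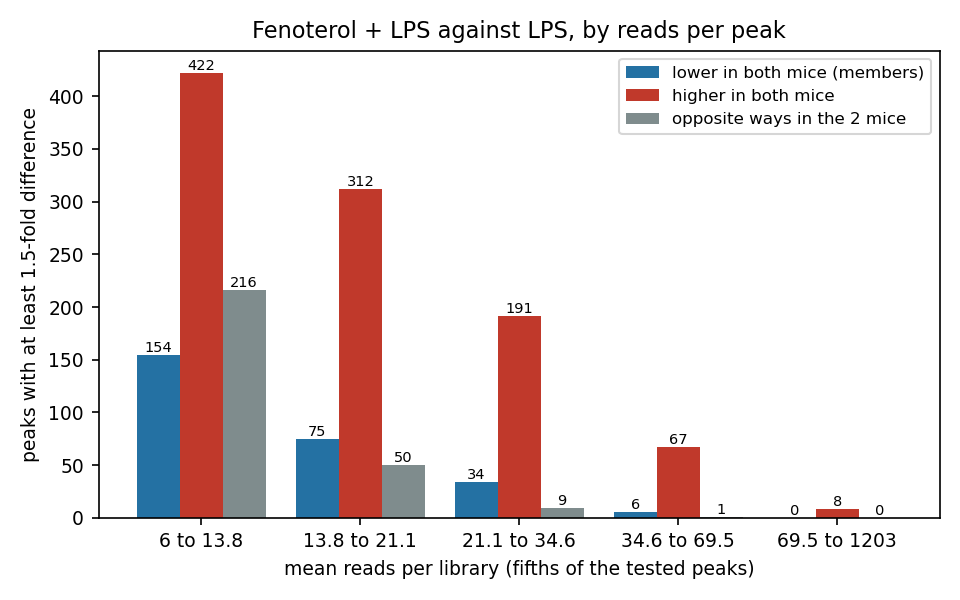
Number of peaks (vertical) that differed at least 1.5-fold between fenoterol + LPS and LPS, by mean reads per library in 5 bins of the tested peaks (horizontal). Bars count peaks lower in both mice, higher in both, or opposite in the 2 mice, from 154, 422 and 216 in the lowest bin to 0, 8 and 0 in the highest.

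Set against the unstimulated libraries, the LPS and fenoterol + LPS values split the chosen peaks into 3 patterns. The cut on the ratio used the LPS and fenoterol + LPS libraries but not the unstimulated ones. In 37 peaks (13.8%) LPS was at least 1.5-fold above unstimulated in both mice, against 6.83% of all peaks that passed the filter. In 69 peaks (25.7%) fenoterol + LPS was at least 1.5-fold below unstimulated in both mice, against 3.07% of all. The other 163 met neither condition. None of the 269 was at least 1.5-fold lower with LPS than unstimulated in both mice, against 2.14% of all. Choosing peaks that are high with LPS and low with both agents raises the first 2 shares and lowers the last, so they describe the set and are not tested. The count of 37 became 65 when LPS was set against unstimulated in mouse 2 alone, leaving out the shallow unstimulated library. Dropping the condition in mouse 1 can only keep or raise this count. The share of all peaks under that condition was not computed, so nothing is read from the rise.

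Against fenoterol alone, 90 of the 269 (33.5%) were at least 1.5-fold lower with fenoterol + LPS in both mice, where 3.52% of all peaks were, and 5 were at least 1.5-fold higher, where 8.77% were. This comparison shares the fenoterol + LPS libraries with the rule. LPS of both mice lay above all 4 libraries without LPS at 89 of the 269, beside 16.8% of all. Fenoterol + LPS of both mice lay below all 4 at 135, beside 19.3%. These counts use the libraries the peaks were selected on, so nothing is read from them.

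**Figure D3:**
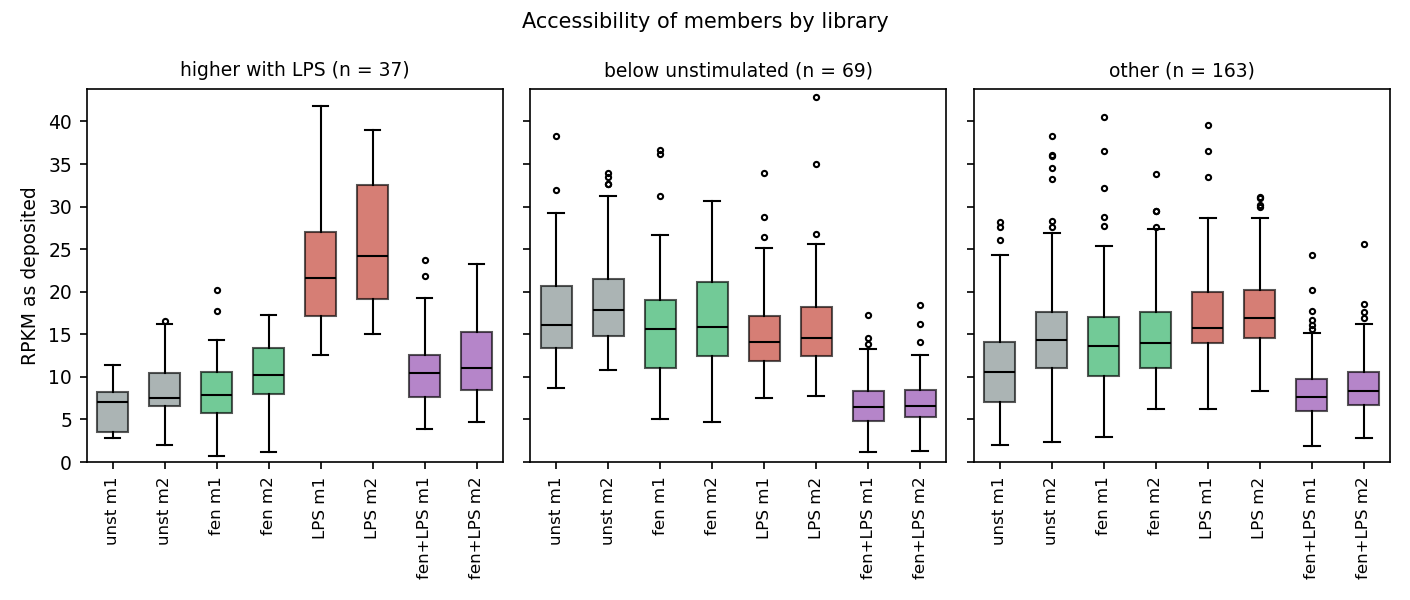
RPKM as deposited (vertical) in each of the 8 libraries (horizontal; m1 and m2 are the mice) for the 37 peaks higher with LPS, the 69 below unstimulated and the 163 others. Boxes span the quartiles with the median as a line, whiskers reach 1.5 times the quartile range and circles lie beyond it. The medians with LPS are 21.6 and 24.2 in the first panel, where unstimulated medians are 7.02 and 7.46, and 14.1 and 14.5 in the second, where unstimulated medians are 16.1 and 17.8.

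The 37 peaks higher with LPS were low without LPS and, with fenoterol before LPS, were nearer to that level than with LPS alone. Their median RPKM in mouse 1 and mouse 2 was 7.02 and 7.46 unstimulated, 7.90 and 10.2 with fenoterol, 21.6 and 24.2 with LPS, and 10.4 and 11.1 with both. Of the difference between LPS and unstimulated, a median of 31.0% in mouse 1 and 20.3% in mouse 2 was present with fenoterol + LPS. Single peaks ran from -55.3% to 54.4% and from -31.4% to 58.3%, where a negative value means a level under unstimulated. Under 50% was present in both mice at 32 of the 37 and under 25% in both at 14. Of all 4562 peaks at least 1.5-fold higher with LPS in both mice, 2.81% and 0.460% met these limits, with medians of 108% and 104% present in mouse 1 and mouse 2. The choice of peaks lower with both agents fixes most of this gap, so it is not tested. They lay on 16 chromosomes, with 6 on chromosome 13, which held 3273 of the 66772 tested peaks. These 6 include an adjoining pair 0.248 kb apart, described below. Another peak at least 1.5-fold higher with LPS in both mice lay within 10 kb of 11 of the 37 (29.7%), against 9.73% of all peaks. The peaks of the adjoining pair count for each other here. The 37 were themselves picked as higher with LPS, and the share among the 4562 was not computed, so nothing is read from this gap.

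The region on chromosome 1 at 192991601 to 192992401 was the widest chosen peak (801 bp) and the one with the most reads behind its difference. Values are given for mouse 1 and then mouse 2. It held 7.02 and 7.73 RPKM unstimulated, 9.88 and 13.0 with fenoterol, 39.0 and 33.7 with LPS, and 9.25 and 12 with fenoterol + LPS. Both LPS libraries stood far above the other 6, which lay between 7.02 and 13.0 RPKM. The log2 ratio of fenoterol + LPS to LPS was -1.70 and -1.23, from 29 and 34 reads against 110 and 98. Of the LPS difference, 6.98% and 16.5% was present with both agents.

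Of the 14 other tested peaks within 50 kb, none was 1.5-fold lower in either mouse. The nearest, at 192990136 to 192990503, lay 1.68 kb away between centres. It held 9.56 and 14.8 RPKM unstimulated, 20.1 and 26.2 with LPS and 19.5 and 19.3 with both. Its log2 ratios were -0.04 and -0.38. A tall peak at 193006911 to 193007685 held 102 and 82.8 RPKM unstimulated and 82.9, 78.5, 75.5 and 84.8 in the libraries with LPS. The lower value was thus found at 1 peak of this stretch and not at its neighbours.

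A pair of adjoining peaks on chromosome 13, 0.248 kb apart, had a like pattern. The first, at 111191792 to 111191991, held 3.53 and 7.46 RPKM unstimulated, 3.18 and 6.69 with fenoterol, 34.2 and 26.2 with LPS, and 14.1 and 5.69 with both. The other, at 111192239 to 111192562, held 8.69 and 5.36, 9.78 and 4.12, 29.9 and 23.8, and 6.32 and 6.13 RPKM in the same order. Its log2 ratio of -1.72 and -1.46 had the lowest mean of all 269. LPS of both mice was above every other library at both peaks. With both agents the second peak lay within the range of the libraries without LPS, and the first did so in mouse 2 but not in mouse 1. The pair may share fragments, so it is not 2 independent regions. A wide peak at 111184494 to 111186165 lay 7.07 kb from the second, between centres. That wide peak held 60.7 and 57.9 RPKM with LPS and 53.6 and 49.6 with both (log2 ratios of -0.17 and -0.21).

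**Figure D4:**
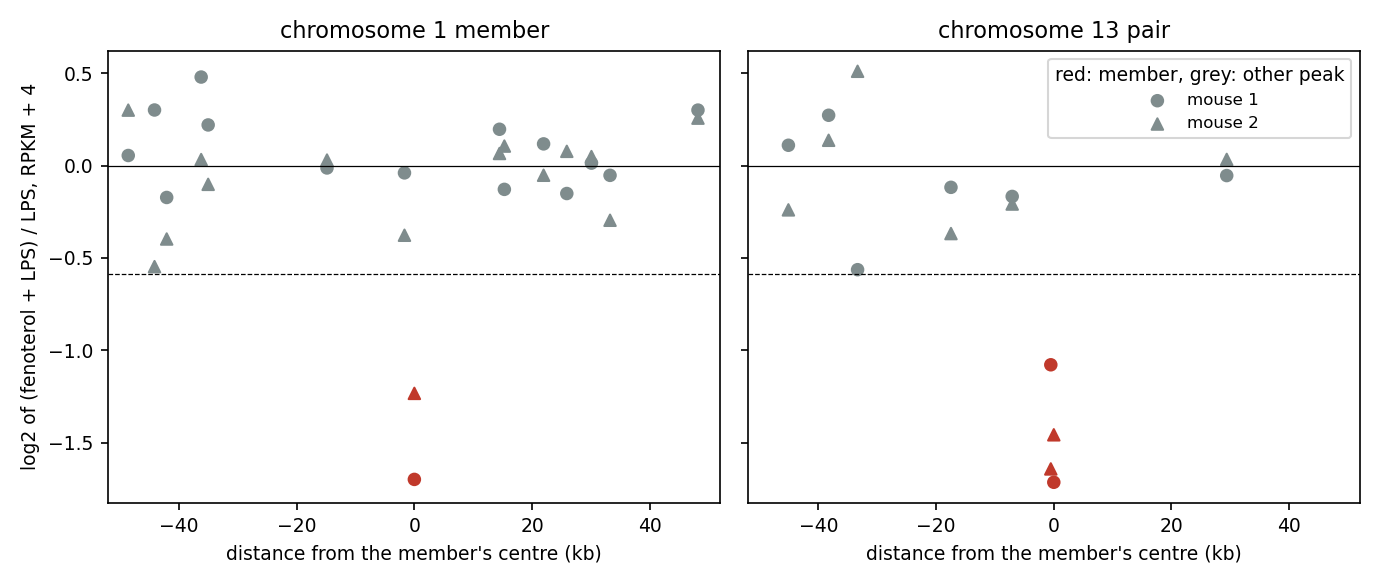
Log2 ratio of fenoterol + LPS to LPS (RPKM + 4, vertical) for each tested peak within 50 kb of the chromosome 1 region (left) and of the second peak of the chromosome 13 pair (right), by distance between centres in kb (horizontal). Circles are mouse 1, triangles mouse 2, red marks chosen peaks and the dashed line is the 1.5-fold cut. The red points lie between -1.08 and -1.72 and the grey ones between -0.56 and 0.51.

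Among the other peaks higher with LPS, the region on chromosome 9 at 99095562 to 99095803 held 8.73 and 6.16 RPKM unstimulated, 6.56 and 9.95 with fenoterol, 18.9 and 22.8 with LPS, and 6.35 and 4.69 with both. The level with both agents was no higher than without LPS, from 6 and 4 reads. At 51915428 to 51916096 on the same chromosome the values were 6.30 and 5.93, 3.78 and 3.99, 30.2 and 32.5, and 12.6 and 15.2 RPKM in the same order. Here 26.4% and 35.0% of the LPS difference was present with both agents, from 33 and 36 reads against 71 and 79. The 2 mice were close to each other in every group at this peak.

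Ranked by the smaller of the 2 mouse values, the log2 ratio of LPS to unstimulated was highest at 2 other peaks, followed by the one just described. On chromosome 8 at 119109640 to 119109883 the values were 5.77 and 2.04 RPKM unstimulated, 2.60 and 4.39 with fenoterol, 36.2 and 38.5 with LPS, and 18.9 and 23.3 with both. On chromosome 11 at 83460529 to 83460975 they were 4.72 and 4.99, 0.709 and 1.19, 28.6 and 36.4, and 17.7 and 18.4 RPKM. At these 2 peaks 42.7% to 58.3% of the LPS difference was present with both agents. All 4 libraries with LPS were above all 4 without it, whether or not fenoterol was given.

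Some of these regions fall in or near loci studied for their LPS response. This placement comes from general knowledge of mm9 and not from an annotation used here. The chromosome 1 region is near Atf3, which encodes a stress-induced factor of the CREB family that limits cytokine transcription. The chromosome 11 peak is in the stretch of Ccl3 and Ccl4, which encode chemokines for monocytes and lymphocytes. Tested peaks near it went both ways. The peak at 83452564 to 83452883, 8.03 kb away between centres, was at least 1.5-fold higher with both agents than with LPS in both mice (log2 ratios of 0.77 and 0.66). Peaks higher with LPS that start at 83477708 (-0.35 and -0.46) and 83479020 (-0.81 and -0.12) were lower but missed the cut. The lower value is thus that of 1 peak and not of the locus. A peak near Cxcl2, a neutrophil chemokine gene, at 91359734 to 91359963 on chromosome 5, held 22.3 and 34.8 RPKM with LPS and 13.4 and 14.8 with both, from 6.13 and 9.73 unstimulated. A peak at Nfkbiz, which encodes the nuclear protein IκBζ, at 55831188 to 55831462 on chromosome 16, held 23.8 and 32.1 RPKM with LPS and 14.0 and 14.5 with both, from 7.68 and 3.61 unstimulated. These last 2 peaks were picked for their location after their values were seen. No locus is given here for the other chosen peaks, and the share of such loci among all tested peaks was not computed. Nothing is therefore read from these names about the set.

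In the 69 peaks below unstimulated, chromatin was open before LPS, and the medians with LPS alone were near that level. Single peaks varied. Their log2 ratio of LPS to unstimulated ran from -1.04 to 0.51 in mouse 1 and from -1.03 to 0.46 in mouse 2. Median RPKM in mouse 1 and mouse 2 was 16.1 and 17.8 unstimulated, 15.7 and 15.9 with fenoterol, 14.1 and 14.5 with LPS, and 6.50 and 6.62 with both. At 66 of the 69 both fenoterol + LPS libraries were under all 4 libraries without LPS, which the condition for this group favours.

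The clearest of them by level was on chromosome 2 at 75534462 to 75534847. It held 38.3 and 33.4 RPKM unstimulated, 31.2 and 28.4 with fenoterol, 33.9 and 35.0 with LPS, and 14.6 and 16.2 with both. The 6 libraries other than fenoterol + LPS lay between 28.4 and 38.3, and the remaining pair lay under them. Its log2 ratio to LPS was -1.03 and -0.95, from 22 reads in each mouse against 46 and 49.

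Other peaks open in all libraries without LPS were less uniform. On chromosome 10 at 57409932 to 57410406, values were 28.1 and 30.3 RPKM unstimulated, 26.7 and 24.7 with fenoterol, 28.8 and 42.9 with LPS, and 17.2 and 18.5 with both. On chromosome 9 at 85019382 to 85019822 they were 31.9 and 32.6, 36.6 and 22.4, 26.5 and 25.6, and 13.9 and 14.1 RPKM. At both, fenoterol + LPS was the lowest group without overlap, while the LPS libraries of the first and the fenoterol libraries of the second differed between mice.

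The 3 peaks farthest under unstimulated with both agents, ranked by the mouse nearer to 0, had few reads with both agents. On chromosome 1 at 130643923 to 130644313, the values were 18.0 and 13.3 RPKM unstimulated, 22.7 and 20.5 with fenoterol, 12.4 and 7.75 with LPS, and 4.58 and 2.90 with both, the last from 7 and 4 reads. On chromosome 18 at 21154154 to 21154462 they were 11.4 and 16.9, 16.4 and 13.0, 8.30 and 15.2, and 2.49 and 3.67 RPKM. On chromosome 9 at 20661672 to 20661871 they were 24.7 and 18.7, 14.3 and 9.37, 9.99 and 13.8, and 5.13 and 5.69 RPKM. LPS alone was also under unstimulated in both mice at these 3 peaks. The X chromosome peak at 163633285 to 163633495 had 10.8 and 13.1 RPKM with LPS and 3.65 and 1.35 with both, from 3 and 1 reads. Another peak of chromosome 18, at 63644424 to 63644681, held 13.7 and 14.4 RPKM unstimulated, 11.1 and 16.6 with fenoterol, 11.0 and 18.2 with LPS, and 1.99 and 7.70 with both. On chromosome 1 at 73972389 to 73972597 the values were 16.9 and 17.8, 10.6 and 10.2, 16.4 and 19.8, and 3.68 and 9.52 RPKM. At both of these the level with both agents was the lowest of the 4 groups and differed widely between the mice.

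The 163 other peaks had median RPKM of 10.6 and 14.3 unstimulated, 13.6 and 14.0 with fenoterol, 15.8 and 16.9 with LPS, and 7.69 and 8.35 with both. At some of them the 2 unstimulated libraries went apart, which can keep a peak from meeting either condition in both mice. On chromosome 13 at 18068755 to 18068963, values were 6.75 and 21.4 RPKM unstimulated, 19.8 and 17.9 with fenoterol, 39.6 and 27.8 with LPS, and 13.5 and 10.9 with both. LPS was the highest group and fenoterol + LPS lay within the spread of the unstimulated libraries. On chromosome 5 at 24108460 to 24108659, they were 3.53 and 19.9, 7.94 and 17.4, 18.5 and 15.2, and 7.69 and 2.84 RPKM, where 3.53 RPKM is 1 read.

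In others of the 163, LPS was close to the levels without LPS. On chromosome 7 at 117348412 to 117348611 there were 7.05 and 13.7 RPKM unstimulated, 14.3 and 13.4 with fenoterol, 15.7 and 13.8 with LPS, and 3.85 and 2.84 with both, from 3 and 2 reads. On chromosome 9 at 16086957 to 16087156, by contrast, 17.1 and 20.7 RPKM with LPS stood above 10.6 and 7.46 unstimulated, 7.94 and 6.69 with fenoterol, and 3.85 and 8.53 with both. A better covered peak on chromosome 7, at 123740322 to 123740882, held 27.6 and 28.3 RPKM unstimulated, 32.2 and 27.6 with fenoterol, 33.5 and 28.0 with LPS, and 17.8 and 16.2 with both, from 39 and 32 reads. The most open peak of the set without LPS was on chromosome 13 at 111734947 to 111735146, with 45.8 and 36.1, 36.5 and 29.5, 45.7 and 45.6, and 24.4 and 25.6 RPKM. At these peaks on chromosomes 7 and 13 every other library lay above both fenoterol + LPS libraries. The chromosome 1 peak at 162231326 to 162231677, also among the 6 most open without LPS, held 16.0 and 36.0 RPKM unstimulated, 40.5 and 25 with fenoterol, 25.9 and 22.7 with LPS, and 13.8 and 13.7 with both. There the mice differed widely without LPS and were alike with both agents.

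**Figure D5:**
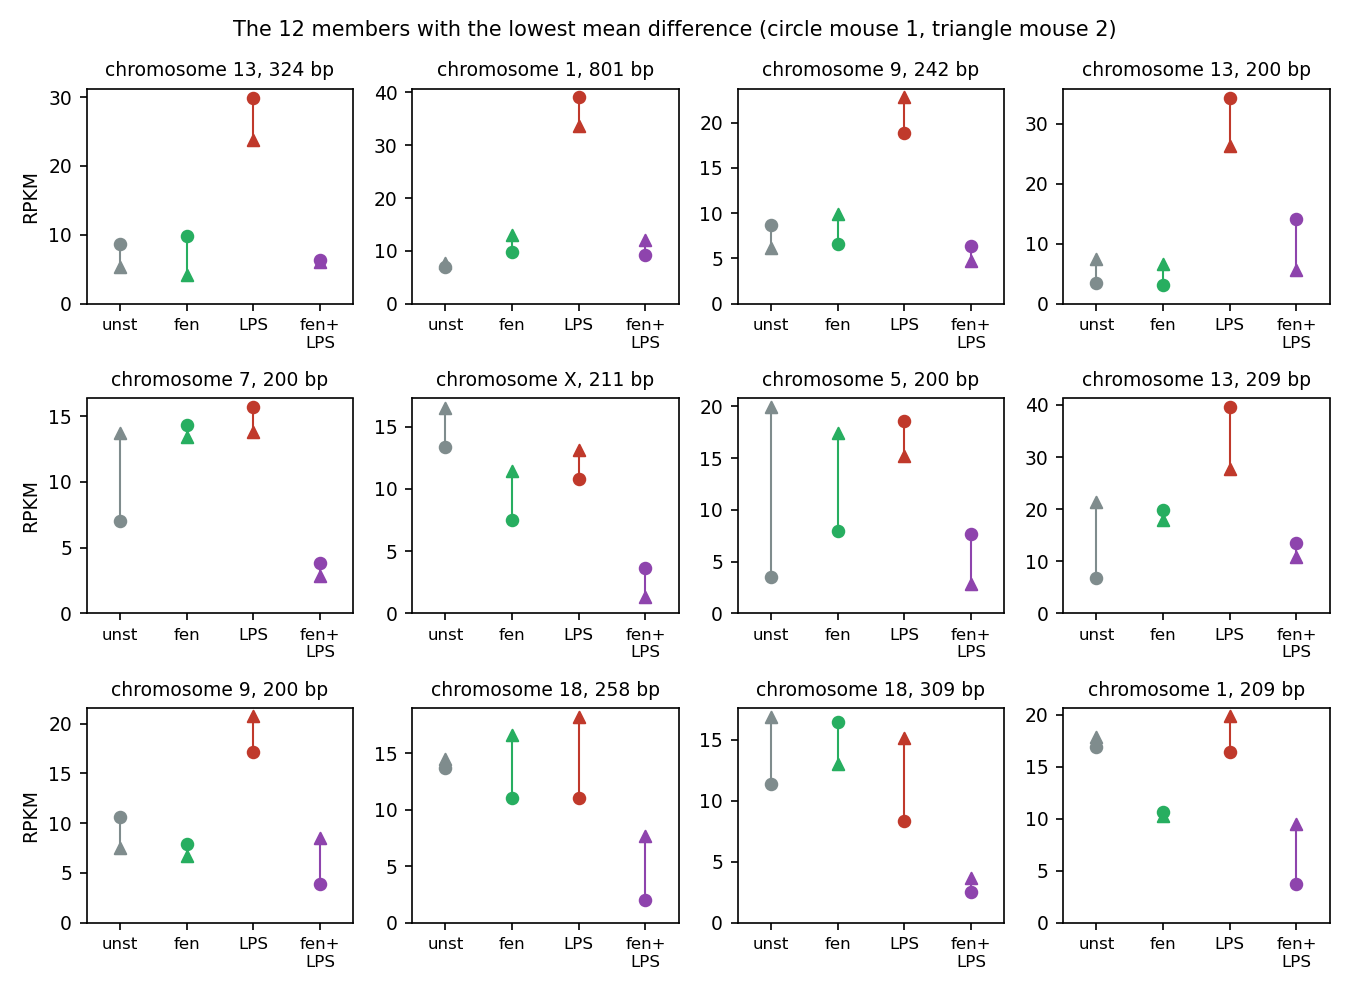
RPKM (vertical, from 0) in the 4 groups (horizontal: unst, unstimulated; fen, fenoterol) for the 12 chosen peaks with the lowest mean log2 ratio, ordered by it from the top left, with circles for mouse 1, triangles for mouse 2 and a line joining them. In the top row LPS stands above the other groups, at 18.9 to 39.0 RPKM, whereas in 6 of the other panels LPS overlaps a group without LPS.

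Members near the cut were close to peaks left out. Just inside, the chromosome 1 peak at 151862741 to 151863012 had a larger log2 ratio of -0.5852, with 10.5 and 19.3 RPKM with LPS and 5.65 and 11.5 with both. The chromosome 4 peak at 46627498 to 46627896 was at -0.5861 and the chromosome 11 peak already described at -0.5868. Just outside, the chromosome 8 peak at 128144253 to 128144543 was left out, with 18.6 and 15.2 RPKM with LPS and 10.6 and 8.78 with both. The next, on chromosome 5 at 142861332 to 142861647 and on chromosome 1 at 123386830 to 123387176, were both at -0.5846. Values on either side of the cut were thus nearly the same.

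The set was spread over the genome. Members lay on 20 chromosomes, with 23 of 5375 tested peaks on chromosome 2, 6 of 2404 on chromosome 16 and 0 of 32 on chromosome Y. Of the 269, 259 had no other member within 50 kb. Beside the chromosome 13 pair, the only members within 10 kb of each other were on chromosome 19, at 41848592 to 41849165 and 41850272 to 41850682, 1.11 kb apart. The first held 12.2 and 27.6 RPKM unstimulated, 25.4 and 19.1 with fenoterol, 13.9 and 14.9 with LPS, and 7.57 and 7.40 with both. The other held 13.7 and 32.6, 23.9 and 22.1, 15.2 and 16.1, and 6.22 and 6.21 RPKM. The 2 peaks had the same order of libraries, lowest in both mice with fenoterol + LPS.

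Peaks near the members that were not members themselves had median ratios close to 0. Of 362 peaks that were not members but lay within 10 kb of one, 123 (34.0%) were lower with fenoterol + LPS than with LPS in both mice by any amount and 85 (23.5%) higher. Among all tested peaks 28.7% were lower and 29.4% higher in both. The median log2 ratio of these neighbours was -0.03 in mouse 1 and -0.04 in mouse 2. Within 50 kb, 32.3% of 1549 peaks were lower in both mice.

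Fenoterol alone, without LPS, is the comparison whose libraries the ratio cut did not use, and it was tested. It used limma-trend on all 66772 peaks with Benjamini-Hochberg adjustment and a threshold of 0.05. No chosen peak passed: 0 of 269 were called, beside 5 of all peaks (0.00749%). At an unadjusted p under 0.05 there were 15 of 269 (5.58%), 8 higher and 7 lower with fenoterol, beside 7.44% of all. A second test, limma voom on recovered reads, also called 0 of 269, beside 0.0464% of all peaks, with 13 at an unadjusted p under 0.05, beside 5.59% of all. When the mouse 2 unstimulated library was left out, so that only the shallow one remained, limma-trend called 7 of 269 (2.60%), beside 5.32% of all peaks. Data were also simulated with changes placed at random among all tested peaks and with an assumed spread. There limma-trend recovered 0% of changes of 1.5-fold in this comparison, 12.9% at 2-fold and 40.4% at 3-fold. A difference of the size used here would thus mostly be missed in that setting. Recovery at the reads of the chosen peaks was not simulated. Their median was 12.6 mean reads per library, against 26.6 for all tested peaks.

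By direction, fenoterol was above unstimulated in both mice at 68 of the 269 (25.3%) and below in both at 53 (19.7%), against 28.4% and 23.0% of all peaks. The median log2 difference was 0.14 in mouse 1 and -0.05 in mouse 2, against 0.05 and 0.00 for all peaks. At least 1.5-fold differences in both mice were seen at 2 higher (1.04% of all peaks were) and 3 lower (0.373% of all). The smallest adjusted p was 0.525, on chromosome 2 at 22681727 to 22682124, with 23.0 and 23.1 RPKM unstimulated, 15.9 and 13.4 with fenoterol, 28.6 and 31.2 with LPS, and 16.7 and 18.5 with both. This peak, named for its p, had a log2 difference of -0.58 (SE 0.19) between fenoterol and unstimulated. Its values with fenoterol and with both agents were alike and lay below those without fenoterol.

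The largest unadjusted difference among the peaks higher with LPS was at the chromosome 11 peak. There, the fenoterol libraries were at 1 and 2 reads and the unstimulated ones at 3 and 9 (limma-trend log2 difference -0.86, SE 0.32, adjusted p = 0.578). The chromosome 1 region near Atf3 had a difference of 0.39 (SE 0.26, adjusted p = 0.778), with both fenoterol values above both unstimulated ones. The second peak of the chromosome 13 pair had -0.08 (SE 0.35, adjusted p = 0.974), and its mice went opposite ways. On chromosome 2 at 75534462 the difference was -0.29 (SE 0.16, adjusted p = 0.731).

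Limma-trend over the whole table called 0 peaks between fenoterol + LPS and LPS, with 4444 at an unadjusted p under 0.05. Voom on reads called 366 higher and 34 lower, the latter 0.0509% of those tested. With 1 unstimulated library left out limma-trend called 4 lower peaks, all among the 269, and 19 higher without that of mouse 1 or 16 without that of mouse 2. Of the 34 that voom called lower, 14 were among the 269 and 20 were not, which is 41.2% of the voom list and 5.20% of the chosen peaks. Because the rule used this contrast, nothing is read from that overlap. The 14 had a median of 27.9 reads per library, and 7 of them belonged to the peaks higher with LPS. The 20 that voom called but the cut left out were wider, with a median of 584 bp and 60.8 reads, and had median log2 ratios of -0.58 in mouse 1 and -0.48 in mouse 2. Some well covered peaks with smaller differences thus lay outside the cut on fold.

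At stricter settings a few of the 269 stayed. At a 2-fold cut 10 did, and with a pseudocount of 20 RPKM, 5 did. Both lists and the voom calls held the chromosome 1 region near Atf3, both peaks of the chromosome 13 pair and the chromosome 13 peak at 18068755. The chromosome 2 peak at 75534462 passed with the higher pseudocount and by voom but not at 2-fold. All of these settings reuse the LPS and fenoterol + LPS libraries that chose the peaks, so passing them is no separate support.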

How the data were processed

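The authors deposited 1 RPKM value per peak and library, for 1 set of 74207 peaks shared by 8 ATAC-seq libraries. Build mm9 and the tools cutadapt, Bowtie2, MACS2 and HOMER are named per the submitters' processing notes. Tool versions, duplicate removal, any Tn5 shift and whether libraries were pooled to call peaks are details not given in the sources used here. Multiplied by peak length, 100% of the deposited values lay within 0.01 of whole reads, which gave the reads per peak; peaks without reads appear to be set to 1 read, which bears on values of 1 read. Depth per library opens the report. Widths count both ends.

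The chosen peaks and the lists were set with earlier results of these data known. The rule was applied to RPKM as deposited, pseudocount 4. For the test, RPKM was divided by median-ratio size factors (0.9401 to 1.037), and limma-trend 3.58.1 in R 4.3.3 was fitted to log2(RPKM + 4) with 4 group means over all 8 libraries and adjusted over 66772 peaks; 7435 peaks failed the filter. Only fenoterol against unstimulated was tested on the chosen peaks. The spread rests on 4 residual degrees of freedom, with 16.4 borrowed across peaks. Libraries of a mouse number come from 1 animal per the labels; mouse differences correlated at 0.0230 to 0.0726 across groups. The fit was tested on simulated reads with 200 changed peaks, with 4 false calls.

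Regions named were the 12 lowest mean ratios, the 6 most open without LPS, members within 10 kb of each other, 3 on each side of the cut, and the 3 highest with LPS and 3 lowest with both agents relative to unstimulated, each ranked by the less extreme mouse; others are said to be chosen afterwards. Alternatives were scaling, pseudocount, filter, cut, the mouse as a block and left-out libraries. Planned counts of motifs, pathway genes and cell type markers were not run, as no mm9 sequence or annotation was used. Python 3.11.15 was used.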

Additional observations from a re-analysis of the deposited data

Results flagged for a closer look

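At 2 of the 269 peaks, fenoterol went with a value 1.5-fold or more above unstimulated in each mouse, but 1.5-fold or more below LPS when given before it. A value at least 1.5-fold higher with fenoterol than unstimulated in both mice was thus seen at 0.743% of the 269, against 1.04% of all tested peaks. The direction with LPS is fixed by the choice of the peaks, and the difference between the effects was not tested. On chromosome 15 at 23520593 to 23520792, mouse 1 and mouse 2 held 7.05 and 6.22 RPKM unstimulated, 14.3 and 17.4 with fenoterol, 14.3 and 11.1 with LPS, and 7.69 and 2.84 with both, a mean log2 difference of 0.90 without LPS and -0.89 with it. On the same chromosome at 38574724 to 38574954 the values were 6.10 and 4.30, 12.4 and 9.27, 17.3 and 33.5, and 9.99 and 18.4 RPKM, with 0.69 without LPS and -0.67 with it. The first peak held 2 and 5 reads in the unstimulated libraries and 6 and 2 with both agents. The second peak held 2 and 4 reads in the unstimulated libraries.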

How the results depend on the processing

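The number of chosen peaks followed the scale. It was 276 with size factors (269 of them shared) and 369 without the filter, but 673 after quantile normalization, 660 with a pseudocount of 0.8, 5 with 20, 10 at 2-fold, and 2419 to 2719 with 1 mouse left out. Those higher with LPS became 57, 97, 3, 66 (no filter) and 3 in the same order of quantile normalization, pseudocounts, filter and 2-fold cut, and 65 to 848 with a mouse or the unstimulated library of mouse 1 left out; the latter alternative was added after seeing the data. Those lower than with fenoterol became 288, 254, 0 and 2 by quantile normalization, pseudocounts and the 2-fold cut, and 1125 to 1271 with a mouse left out. The cause was not tested, beyond each alternative's own construction. Calls of fenoterol against unstimulated were 0 of 269 in 17 of 18 alternatives, voom and the fit on the 4 libraries without LPS being added after seeing the data; with 1 library left out they were 0 to 7. With the mouse as a replicate block it was also 0 of 269. Over all tested peaks that fit called 7 higher and 1 lower, against 4 and 1 in the main fit. Limma-trend in place of voom gave 0 of the 14 shared calls. Low read numbers limit all values of narrow peaks.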
